A study of Mus musculus with 8 samples.

Results

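The Serpina3 genes of the mouse are a row of closely related antichymotrypsin-like serpins on chromosome 12, and 6 of them were followed here: Serpina3f, Serpina3g, Serpina3h, Serpina3i, Serpina3m and Serpina3n. They were taken by gene ID from count tables of 41591 gene rows. The set was chosen by measured values, because Serpina3i and Serpina3m were much lower in the knockout ovaries, so the differences between groups for these 6 genes are given as a description. Their calls in the fit over all genes are given beside the share of all genes called, and nothing rests on them. RNA was sequenced from whole ovaries of 8 C57BL/6 females about 3 weeks old, 4 per group. Every female had been superovulated with 4 IU of equine chorionic gonadotropin (eCG), followed after 48 h by 5 IU of human chorionic gonadotropin (hCG), and the ovaries were removed 12 h after hCG. The Control females were labelled wild-type and Pgr-Cre positive and were littermates of the others. The DKO females carried a conditional double knockout of Insr and Igf1r, the receptors of insulin and of insulin-like growth factor. Pgr-Cre stands for Cre recombinase under the progesterone receptor gene, so cells of the ovary in which that gene is silent would keep both receptors.

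Serpins are protease inhibitors that offer a protease an exposed strand, the reactive centre loop, and trap the enzyme when it cuts there, so the loop decides which proteases a serpin can bind. Humans have a single SERPINA3, an acute phase protein of liver and of stimulated tissues, whereas mice have a cluster of copies whose loops have diverged. Serpina3n is known as a secreted inhibitor induced by cytokines and glucocorticoids, and Serpina3g as an intracellular inhibitor of lysosomal cathepsins. Ovulation involves protease activity in the follicle wall, which is the setting in which these genes were measured.

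The stretch that codes for the reactive centre loop is shown for all 6 genes, because the copies differ more there than over their whole length and because the loop sets which proteases are bound. Each runs 5′ to 3′ on the plus strand of chromosome 12 in GRCm38, from the codons of the serpin hinge to those after the cleavage region. Capitals mark bases unlike the most common base at that place among the 6 genes. Where bases were equally common, the one met first in the order shown was taken. Bases of Serpina3f without a counterpart in Serpina3n are also in capitals.
Serpina3f, chr12:104220245-104220337: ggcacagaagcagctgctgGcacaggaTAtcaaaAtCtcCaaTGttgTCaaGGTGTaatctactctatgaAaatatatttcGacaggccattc
Serpina3g, chr12:104241072-104241161: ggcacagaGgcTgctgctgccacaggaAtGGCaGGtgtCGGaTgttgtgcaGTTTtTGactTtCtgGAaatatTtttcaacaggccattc
Serpina3h, chr12:104253511-104253600: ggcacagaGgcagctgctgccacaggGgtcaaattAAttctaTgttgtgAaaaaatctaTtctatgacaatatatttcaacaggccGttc
Serpina3i, chr12:104268480-104268569: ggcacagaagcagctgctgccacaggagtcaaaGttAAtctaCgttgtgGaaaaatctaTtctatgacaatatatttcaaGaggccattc
Serpina3m, chr12:104393769-104393858: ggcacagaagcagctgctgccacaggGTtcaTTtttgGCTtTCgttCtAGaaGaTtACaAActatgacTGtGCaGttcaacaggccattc
Serpina3n, chr12:104413448-104413537: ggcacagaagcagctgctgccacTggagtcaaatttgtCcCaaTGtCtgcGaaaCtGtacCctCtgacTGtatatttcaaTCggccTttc

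The hinge end of the loop was nearly the same in all 6, and the capitals gather in its middle. Serpina3g and Serpina3m had 23 capitals each, Serpina3f had 17, Serpina3n 16, Serpina3h 8 and Serpina3i 7. These counts depend on how ties were settled and, for Serpina3f, include bases without a counterpart, so they do not rank the copies. Loops of Serpina3h and Serpina3i were 90.0% identical, and those of Serpina3g and Serpina3m were 61.1% identical. Over the longer aligned sequence the copies were closer. Serpina3h and Serpina3i shared 93.7% of 1223 aligned bases, Serpina3f and Serpina3g 91.4%, and Serpina3i and Serpina3m, the pair farthest apart among the 6, 82.7%. Serpina3h is annotated as a transcribed pseudogene, although no stop codon stood in the loop stretch.

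That likeness bears on the counts. Of all 50-base windows in the GENCODE transcripts of each gene, the share found in no other gene was 93.1% for Serpina3n, 89.4% for Serpina3f, 84.5% for Serpina3g, 84.1% for Serpina3i, 80.9% for Serpina3m and 78.1% for Serpina3h. At 100 bases it was between 93.9% (Serpina3m) and 99.8% (Serpina3n). Serpina3h shared 15.8% of its 50-base windows with Serpina3i and 14.1% with Serpina3g, and Serpina3m shared 16.0% with Serpina3k. The read length is not given in the sources used here. The recorded counting command set no option to count reads that match several places, so reads of near-identical stretches may be missing from a copy. No exon base of the 6 rows overlapped another row of the tables.

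The 6 rows lay on the plus strand of chromosome 12 in GRCm38.p5 over 199.8 kb, each with its exons on that chromosome alone. Serpina3f (gene ID 238393) spanned 104214544 to 104221129, Serpina3g (20715) 104236242 to 104241934 and Serpina3h (546546) 104247896 to 104254405. Serpina3i (628900) spanned 104263045 to 104269509, Serpina3m (20717) 104387157 to 104394259 and Serpina3n (20716) 104406698 to 104414334.

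Facts of the whole series bear on these values. The libraries held 33145056 to 39257648 counts in genes. Insr was at 140 to 162 CPM (counts per library size, scaled with TMM factors) in Control and 112 to 148 in DKO, and Igf1r at 196 to 263.3 and 200 to 247. Counts over whole genes do not separate a deleted exon, so they check the genotype labels weakly. The numbers in the sample titles, which may be animal numbers although the labels do not say so, are lowest in Control 1, DKO 1 and DKO 2 and form a later run in the other 5 libraries. Summed oocyte markers were 125 to 157 CPM in those 3 libraries and 274 to 455 CPM in the other 5. Summed markers of surface and oviduct epithelium were 1991 CPM in Control 1 and 1237 CPM in DKO 2, against 160 to 229 CPM in the other 6. The part of these differences in the results below was not tested. The design counts 4 mice in each group, read here as 1 mouse per library, and litters are not given.

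Each of the 6 genes had a lower mean in DKO ovaries than in Control ovaries, from 1.97-fold for Serpina3n to 15.1-fold for Serpina3m. In edgeR's quasi-likelihood fit over 16870 genes, Serpina3i and Serpina3m were called lower at an adjusted p under the threshold of 0.05 and the other 4 were not called. Of all genes tested, 0.498% were called lower, 0.759% higher and 1.26% in either direction. The count of 2 in 6 is set by the choice of genes, and nothing is read from it. Below 0 were all 6 copies and 53.1% of genes tested. In bulk tissue, fewer cells that express a gene and less RNA per cell cannot be told apart.

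**Figure D1:**
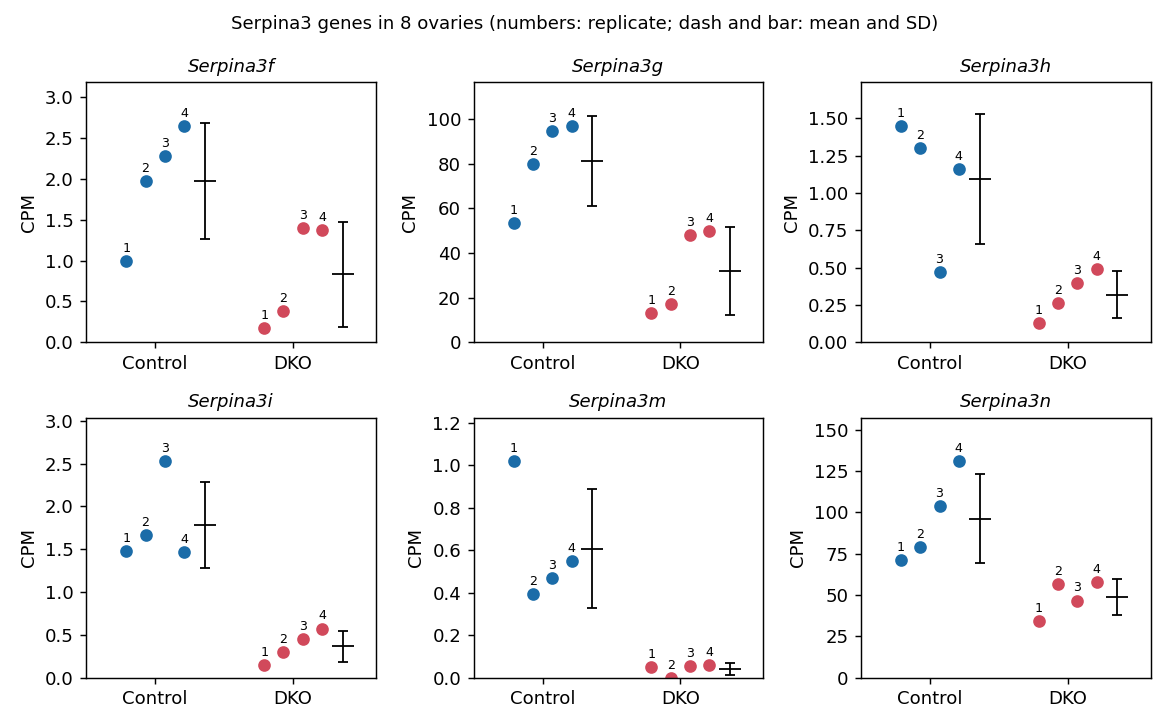
Level in CPM (linear axis from 0) of each of the 6 Serpina3 genes in the 4 Control and 4 DKO ovaries; numbers are replicates, and the dash and bar give the mean and SD of a group. Control lies above DKO with no overlap for Serpina3g, Serpina3i, Serpina3m and Serpina3n, while DKO 3 and DKO 4 lie inside the Control range for Serpina3f, and Control 3 is close to DKO for Serpina3h.

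Serpina3n, the secreted inhibitor and the copy with the most counts, stood at 71.0, 79.1, 104 and 131 CPM in Control 1 to 4 and at 34.3, 56.8, 46.7 and 57.8 CPM in DKO 1 to 4. Every Control ovary was above every DKO ovary, and DKO 1 was the lowest of the DKO ovaries. The means were 96.3 ± 27.1 and 48.9 ± 11.0 CPM (SD, n = 4 each), a log2 fold change of -0.98 ± 0.22 (SE).

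Serpina3g, the cathepsin inhibitor, stood at 53.2, 79.9, 94.4 and 97.0 CPM in Control 1 to 4 and at 13.1, 17.0, 47.9 and 49.8 CPM in DKO 1 to 4. The DKO group fell into a low pair, DKO 1 and DKO 2, and a pair just under the lowest Control. The means were 81.1 ± 20.1 and 31.9 ± 19.6 CPM, and the log2 fold change was -1.34 ± 0.45. Without DKO 1 and DKO 2 it was -0.71, so this pair carries much of the size of the difference for Serpina3g.

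Serpina3f, whose locus starts the row of 6, was at 0.994, 1.98, 2.28 and 2.65 CPM in Control 1 to 4 and at 0.178, 0.383, 1.40 and 1.38 CPM in DKO 1 to 4. DKO 3 and DKO 4 were above Control 1, so the groups overlapped. The log2 fold change was -1.24 ± 0.60 with all libraries and -0.49 without DKO 1 and DKO 2.

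Serpina3i, one of the 2 genes called lower, was measured from 48 to 92 counts per Control library and 6 to 20 counts per DKO library. Its levels were 1.48, 1.67, 2.53 and 1.46 CPM in Control 1 to 4 and 0.152, 0.294, 0.448 and 0.574 CPM in DKO 1 to 4. The lowest Control lay well above the highest DKO. The means were 1.78 ± 0.505 and 0.367 ± 0.183 CPM, and the log2 fold change was -2.27 ± 0.42. The call was not made in 5 of the 8 fits that left out 1 library (Control 2, Control 4, DKO 1, DKO 2 or DKO 3). It was also not made without DKO 1 and DKO 2, without Control 1 and DKO 2, or in the 5 libraries of the later run alone.

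Serpina3m, the other gene called lower, rested on few reads: 38, 14, 17 and 18 counts in Control 1 to 4 and 2, 0, 2 and 2 counts in DKO 1 to 4. The sums were 87 counts in Control (exact Poisson 95% interval 69.7 to 107) and 6 in DKO (2.20 to 13.1), intervals that cover counting error only. No DKO library came near the lowest Control. The log2 fold change was -3.79 ± 0.59, the third most negative of the 84 genes called lower. Serpina3m was among the genes the choice was made on, so nothing is read from this rank. Control 1 alone gave 38 of the 87 Control counts, and the fold of the means was 15.1 with all libraries and 8.78 without Control 1 and DKO 2. The call was not made without Control 2, Control 4, DKO 1, DKO 3 or both DKO 1 and DKO 2, or in the 5 libraries of the later run alone.

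Serpina3h, the pseudogene, gave 54, 46, 17 and 38 counts in Control 1 to 4 and 5, 9, 15 and 17 counts in DKO 1 to 4. Control 3 and DKO 4 had 17 counts each, and the groups overlapped. The log2 fold change was -1.77 ± 0.48.

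How many of the 6 copies were called lower moved with the fit, and so did the share of all genes. DESeq2 called 4 of the 5 it gave an adjusted p (3.16% of all genes called lower), and limma-voom with sample quality weights called 5 of 6 (3.88%). With at least 1 CPM required in at least 4 libraries, 4 copies were tested and 1 was called (0.612%). The count was 1, Serpina3g, within the later run of title numbers (0.384%), 1, Serpina3m, without Control 1 and DKO 2 (0.285%) and 0 without DKO 1 and DKO 2 (0.0628%).

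Across genes, every Control library was above every DKO library for 4 of the 6 copies and for 3.54% of the 16870 genes tested. The median log2 fold change was -1.56 over the 6 copies and -0.02 over all genes tested. Both the 4 of 6 and this median include the values by which the genes were chosen, and nothing is read from them. Adding up the counts of the 6 genes keeps a read that was given to the wrong one of these copies inside the sum. The sum stood at 129, 164, 204 and 234 CPM in Control 1 to 4 and at 47.9, 74.8, 96.9 and 110 CPM in DKO 1 to 4. Its means were 183 ± 45.8 and 82.4 ± 27.2 CPM, and its log2 fold change was -1.15 ± 0.27. Serpina3g and Serpina3n together made up 97.0% of these counts in Control and 98.1% in DKO, so the sum says little of the 4 rarer copies.

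**Figure D2:**
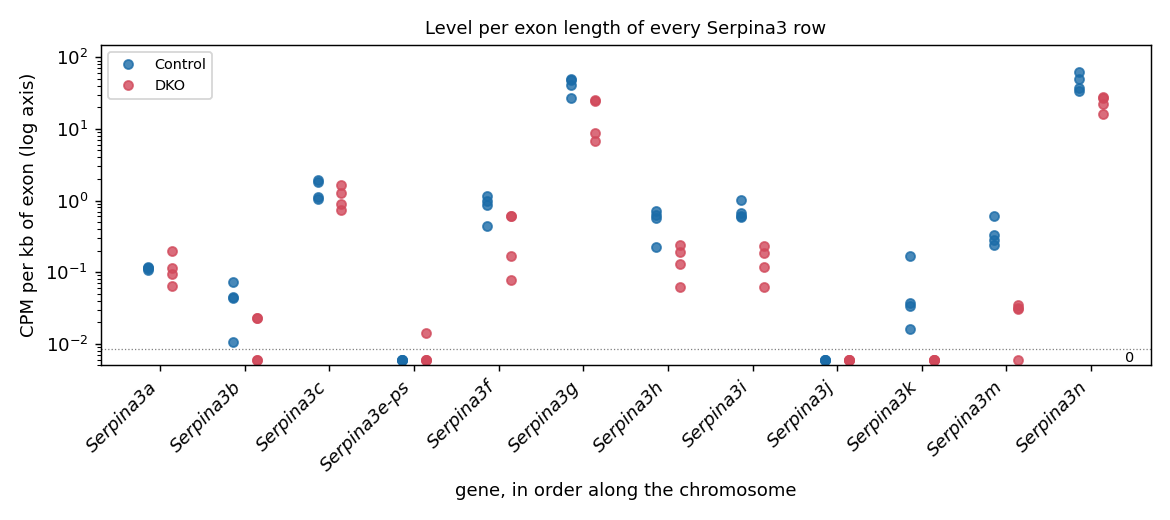
Level in CPM per kb of exon (log axis, with values of 0 below the dotted line) of all 12 Serpina3 rows in their order along the chromosome, 4 Control and 4 DKO ovaries each. Serpina3g and Serpina3n lie more than 10-fold above the rest in Control, and Serpina3k has counts in Control ovaries only.

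Per kb of exon, the order of the Control means was Serpina3n, Serpina3g, Serpina3f, Serpina3i, Serpina3h and Serpina3m. Serpina3n at 45.9 CPM per kb (range 33.8 to 62.4) and Serpina3g at 41.6 (27.3 to 49.8) overlapped. Serpina3f at 0.863 (0.434 to 1.16), Serpina3i at 0.725 (0.595 to 1.03), Serpina3h at 0.534 (0.228 to 0.707) and Serpina3m at 0.365 (0.237 to 0.612) each overlapped the next in the order. In DKO the means were 23.3, 16.4, 0.364, 0.149, 0.155 and 0.0241 CPM per kb in that same order. Among all rows ranked by the Control mean per kb, Serpina3n was at place 1511 and Serpina3g at place 1718, and in DKO they were at places 3223 and 4415. When the exon length was scaled to the share of 50-base windows found in 1 gene, the values were 49.3 CPM per kb for both genes in Control, so their order is not settled.

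The balance between the 2 abundant copies was not the same in all ovaries. Serpina3n had 1.34, 0.990, 1.10 and 1.35 counts for each count of Serpina3g in Control 1 to 4, and 2.61, 3.34, 0.975 and 1.16 in DKO 1 to 4. DKO 3 and DKO 4 lay within or just under the Control range and DKO 1 and DKO 2 well above it. The mean of DKO 3 and DKO 4 was 4.95 times that of DKO 1 and DKO 2 for Serpina3f and 3.24 times for Serpina3g. It was 2.25 times for Serpina3h, 2.29 times for Serpina3i, 2.17 times for Serpina3m and 1.15 times for Serpina3n.

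**Figure D3:**
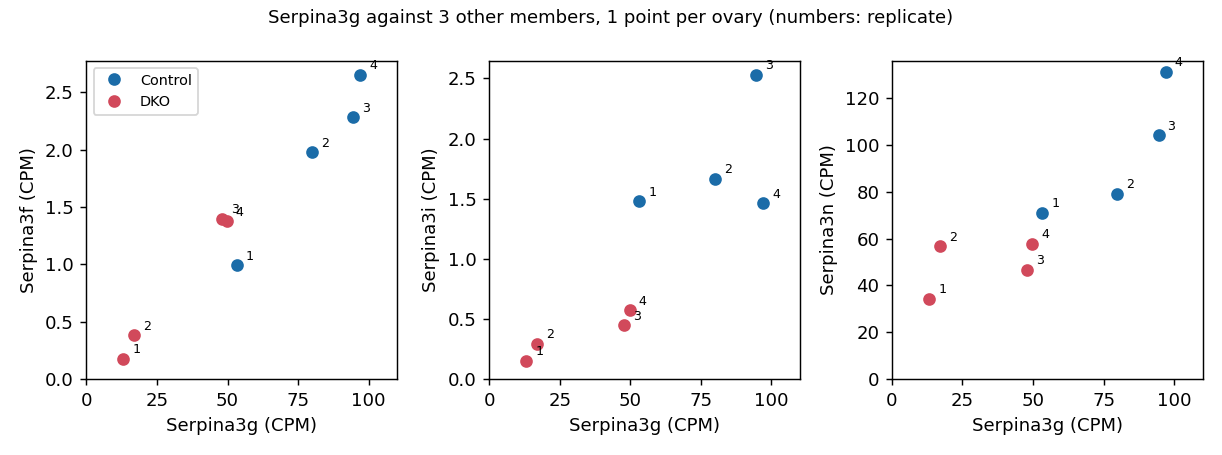
CPM of Serpina3f, Serpina3i and Serpina3n against CPM of Serpina3g, 1 point per ovary with its replicate number, linear axes. Serpina3f rises with Serpina3g through both groups. On log2 CPM, not the CPM plotted, r was 0.981 over both groups and 0.989 for deviations from the group means. DKO 3 and DKO 4 have less Serpina3i than Control 1, the Control ovary with a like Serpina3g level, and DKO 1 and DKO 2 have no such Control. DKO 2 has little Serpina3g at a Serpina3n level near that of DKO 3 and DKO 4, and DKO 1 is lowest in both.

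Deviations of log2 CPM from the group means, which remove the difference between groups, were compared between the copies over the 8 libraries as a description. Pearson's r was 0.989 for Serpina3f with Serpina3g, 0.850 for Serpina3g with Serpina3i and 0.845 for Serpina3f with Serpina3i. It was 0.632 for Serpina3f with Serpina3n, 0.556 for Serpina3g with Serpina3n and -0.401 for Serpina3m with Serpina3n. These points share the libraries, and Serpina3f, Serpina3g and Serpina3i share stretches of sequence. Serpina3m had only 0 to 2 counts per DKO library. The split of DKO 1 and DKO 2 from DKO 3 and DKO 4 stays in these deviations, and its part in r was not tested. Counts of Serpina3i were 2.78%, 2.09%, 2.68% and 1.51% of those of Serpina3g in Control 1 to 4 and 1.16%, 1.73%, 0.936% and 1.15% in DKO 1 to 4. DKO 2 overlapped with the Controls, and since Serpina3i was among the genes the choice was made on, these shares are a description.

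Since DKO 1, DKO 2 and Control 1 stand outside the later run of title numbers, the values were also taken within it. Among Controls 2 to 4 and DKO 3 and 4, the Control mean was 1.66 times the DKO mean for Serpina3f, 1.85 times for Serpina3g, 2.21 times for Serpina3h, 3.69 times for Serpina3i, 8.55 times for Serpina3m and 2.00 times for Serpina3n. Within that run only Serpina3h overlapped between the groups. The share of all genes without overlap there was not taken, and the genes were chosen on this contrast, so nothing is read from it. Control 1 was 3.55, 3.53, 7.40, 6.61, 40.2 and 1.56 times the mean of DKO 1 and DKO 2 for the same genes in turn, and with 1 Control library these values have no replicate check.

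**Figure D4:**
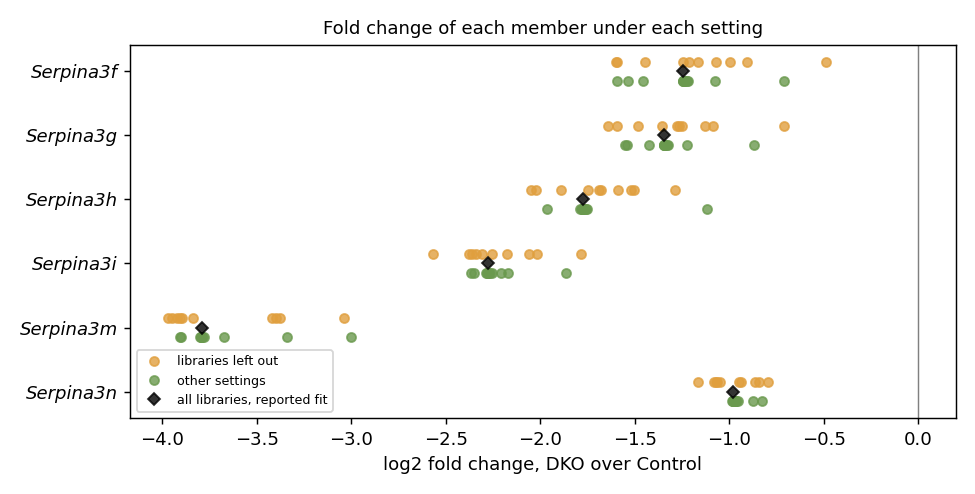
Log2 fold change of DKO over Control for each of the 6 genes with all libraries (black), with 1 or 2 libraries left out (orange) and under other scalings, filters, tests and blocks (green). Every point lies below 0, with the widest spread for Serpina3f, from -1.60 to -0.49, and for Serpina3m.

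The other rows of the cluster were rare or absent in these ovaries. Serpina3c, on the opposite strand, had 66 to 120 counts per Control library and 52 to 113 per DKO library, a log2 fold change of -0.37 ± 0.34 that did not pass. Serpina3a had 7 to 8 counts per Control library and 4 to 13 per DKO library, Serpina3b had 1 to 6 and 0 to 2, Serpina3e-ps had 1 count in all, and Serpina3j had 0 counts in every library. Serpina3k, abundant in liver and the nearest relative of Serpina3m here at 92.0% identity, had 1, 2, 10 and 2 counts in Control and 0 in every DKO library. The Control sum of 15 has an exact Poisson 95% interval of 8.40 to 24.7, and 0 counts allow up to 3.69. Of those 15 counts, 10 came from Control 3, so no fold is given.

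Liver markers were examined beside Serpina3m and Serpina3k because liver uses both genes. Albumin (Alb) was at 0 to 0.08 CPM and transthyretin (Ttr) at 0 to 0.05 CPM in every library, which is near 0. Of 8 hepatocyte markers 6 were tested, and the apolipoprotein gene Apoa1 was called lower, as were 0.498% of all genes tested. Their summed level, nearly all of it transferrin (Trf) and Apoa1, was 399 to 540 CPM in Control and 211 to 557 CPM in DKO. DKO 2, with 1237 CPM of epithelial markers, had 0 Serpina3m counts, beside 2 in each other DKO library. Control 1, with 1991 CPM, had the most. The part of epithelium in the Serpina3m counts was not tested.

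The neighbourhood of the cluster did not hold other called genes. From 500 kb before Serpina3f to 500 kb after Serpina3n lay 25 further rows, of which 4 could be tested, and edgeR called 0 of them, with 0 at an unadjusted p under 0.05. DESeq2 and both limma-voom fits also called 0. These were Serpina5 (-0.04 ± 0.69), Serpina3c, Clmn (-0.48 ± 0.81) and Dicer1, the nearest tested gene that is no serpin (-0.28 ± 0.14), as log2 fold changes.

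Upstream sequences from RefSeq on GRCm38.p6 were at hand for 4 of the 6 genes: Serpina3f, Serpina3g, Serpina3i and Serpina3n. They are shown so that the copies can be compared near the start of transcription. The STAT motif TTCNNNGAA has a match in Serpina3f, Serpina3g and Serpina3i and none in the window of Serpina3n, and no relation of a match to the levels was tested. Each sequence runs 5′ to 3′ on the plus strand and ends before the first base of the gene's row or RefSeq transcript. Capitals mark the match to TTCNNNGAA and, in Serpina3f and Serpina3n, the stretch CAGAGCACAGCTT.
Serpina3f, chr12:104214294-104214543: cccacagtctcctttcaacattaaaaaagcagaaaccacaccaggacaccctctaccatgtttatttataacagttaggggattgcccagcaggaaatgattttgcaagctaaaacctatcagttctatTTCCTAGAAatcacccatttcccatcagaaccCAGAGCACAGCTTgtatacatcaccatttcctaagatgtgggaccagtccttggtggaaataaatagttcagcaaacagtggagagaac
Serpina3g, chr12:104235897-104236146: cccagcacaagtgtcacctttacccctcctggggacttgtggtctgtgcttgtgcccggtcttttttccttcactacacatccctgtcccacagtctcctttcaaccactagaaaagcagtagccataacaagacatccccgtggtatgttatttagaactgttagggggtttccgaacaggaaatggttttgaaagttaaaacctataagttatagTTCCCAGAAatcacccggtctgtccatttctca
Serpina3i, chr12:104262872-104263044: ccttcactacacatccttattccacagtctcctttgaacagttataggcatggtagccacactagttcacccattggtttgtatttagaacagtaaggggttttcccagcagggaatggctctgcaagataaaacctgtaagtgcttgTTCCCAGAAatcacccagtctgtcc
Serpina3n, chr12:104406458-104406697: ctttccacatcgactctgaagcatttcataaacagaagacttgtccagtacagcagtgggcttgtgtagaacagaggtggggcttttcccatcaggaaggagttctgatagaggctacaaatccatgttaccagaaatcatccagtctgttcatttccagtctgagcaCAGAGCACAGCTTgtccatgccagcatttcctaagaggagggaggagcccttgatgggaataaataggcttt

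Motifs were searched on both strands of windows that reach from 250 bases before to 50 after each RefSeq start. TTCNNNGAA was held by 8.30% of all 32851 windows. The motif TGTTCT, a core of the glucocorticoid and progesterone receptor site, was in the windows of Serpina3f, Serpina3i and Serpina3n and in 19.0% of all windows. The C/EBP motif TTGCNNAA was in that of Serpina3f and in 10.8% of all. The FOXO motif TGTTTAC, in 3.65% of all, and the AP-1 motif TGANTCA, in 7.81%, were not in these 4 windows. The stretch CAGAGCACAGCTT, found as the longest one that all 4 share after the sequences were seen, stood in 0.0213% of windows, and the other genes holding it were Serpina3c and Olfr374. The copies share ancestry, and a match describes letters only.

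Genes of the STAT3 and acute phase response, a setting in which Serpina3n is known to be induced, were mostly below 0. Of 37 listed genes 30 were tested, 26 had a log2 fold change below 0, and the median was -0.66. edgeR called 1 lower: Lif, a cytokine that signals through STAT3, at 8.06 to 16.9 CPM in Control and 2.97 to 6.20 CPM in DKO (log2 fold change -1.58 ± 0.30, adjusted p = 0.0415). In that list 16 genes had an unadjusted p under 0.05, and the share of all genes at that p was not taken. DESeq2 called 6, limma-voom 0 and limma-voom with quality weights 8. Over all genes they called 1118 of 15067, 212 of 16870 and 1651 of 16870 in either direction. In the edgeR fit over all genes, 53.1% were below 0, the median was -0.02 and 0.498% were called lower. The Lif call was not made by limma-voom, nor by edgeR without Control 2, Control 4 or any 1 DKO library. The 4 tested genes above 0 included the serum amyloid genes Saa2 (log2 fold change 2.52 ± 1.11) and Saa3 (1.87 ± 0.73), which were not called and are named after their values were seen.

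Of 16 glucocorticoid response genes 14 were tested, with a median of -0.70, and 4 were called lower: Hsd11b1, Mt1, Mt2 and Tsc22d3. Like the other lists, this list was chosen with earlier results of these data known, so nothing is read from the count. Hsd11b1, which regenerates active glucocorticoid in cells, was at 5.86 to 7.64 CPM in Control and 2.51 to 3.40 CPM in DKO (log2 fold change -1.18 ± 0.19, adjusted p = 0.0288 by edgeR). Tsc22d3, a glucocorticoid-induced leucine zipper gene, was at 97.8 to 155 CPM in Control and 53.3 to 86.6 CPM in DKO (-0.94 ± 0.18, adjusted p = 0.0451 by edgeR). The receptor gene Nr3c1 was at 50.1 to 65.6 CPM in Control and 49.2 to 59.4 CPM in DKO and did not pass. In that list 11 of 14 were below 0 and 3 above, against 53.1% of all genes below 0 and 0.498% called lower by edgeR. An unadjusted p under 0.05 was met by 9, with no share of all genes taken. DESeq2 called 7, limma-voom 5 and limma-voom with quality weights 7. Over all genes they called 1118 of 15067, 212 of 16870 and 1651 of 16870 in either direction. The edgeR count of 4 became 0 without Control 2, Control 4, DKO 2 or DKO 3 and 1 without DKO 1 or DKO 4.

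Of 18 proteases that antichymotrypsin-like serpins can meet, 13 were tested, the median was -0.03, and edgeR called 1 lower, the mast cell tryptase gene Tpsb2 (log2 fold change -1.79 ± 0.34, adjusted p = 0.0425). Tpsb2 was also among 5 tested mast cell markers, of which 2, Tpsb2 and Cpa3, were called lower. Of all genes tested, edgeR called 0.498% lower. Of the 13 proteases DESeq2 called 4, limma-voom 1 and limma-voom with quality weights 4. Over all genes they called 1118 of 15067, 212 of 16870 and 1651 of 16870, which also stand beside the serpin and interferon counts below. No share of all genes at an unadjusted p under 0.05 was taken. The Tpsb2 call was lost without Control 2, Control 4 or any 1 DKO library. Among 15 other serpins tested, edgeR called 0, with 4 at an unadjusted p under 0.05, and DESeq2 called 1, limma-voom 0 and limma-voom with quality weights 2. The smallest adjusted p of edgeR there was 0.083, for Serpinb1a (-0.66 ± 0.16). Among 25 interferon response genes tested, edgeR, DESeq2 and both limma-voom fits called 0, with 1 at an unadjusted p under 0.05 in edgeR. That gene was Iigp1, an interferon-induced GTPase (-0.69 ± 0.25, adjusted p = 0.209).

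Markers of other cells of the ovary were read beside these values. Of 10 neutrophil markers 6 were tested, all 6 below 0 with a median of -1.59, and their summed level was 6.98 to 28.6 CPM in Control and 3.15 to 5.51 CPM in DKO. edgeR called 0 of them, with 6 at an unadjusted p under 0.05, and DESeq2 called 2 and both limma-voom fits 0. Of all genes 53.1% were below 0, and no share at that unadjusted p was taken. For these and the markers below, edgeR called 0.498% of all genes lower and 0.759% higher. In either direction, DESeq2 called 1118 of 15067 genes, limma-voom 212 of 16870 and limma-voom with quality weights 1651 of 16870. Macrophage markers summed to 250 to 370 CPM in Control and 241 to 302 CPM in DKO, and T and NK cell markers to 3.60 to 6.30 and 4.24 to 7.46 CPM. Fat cell markers summed to 113 to 178 CPM in Control and 54.3 to 110 CPM in DKO, with 7 tested, a median of -1.13 and 1, the lipid droplet gene Plin1, called higher. The part of neutrophils or fat cells in the Serpina3 counts was not tested. Theca and interstitial markers summed to 4543 to 7546 CPM in Control and 8627 to 9894 CPM in DKO. The higher DKO sum was not a rise of most genes in that list. Among its 8 tested genes, 5 were lower in DKO and 3 higher, and the median was -0.035. Of these genes edgeR and limma-voom called 0, and DESeq2 and limma-voom with quality weights called 3 each. Granulosa and cumulus markers summed to 2630 to 3623 CPM in Control and 3168 to 4133 CPM in DKO.

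Genes whose log2 CPM was most like that of a copy over the 8 libraries were sought among at least 11287 others that averaged 5 CPM or more. Nearest to Serpina3i were Slc43a3 (Pearson's r 0.986), Frmd5 (0.985) and Arl4d (0.981), and 172 genes passed an r of 0.9. For Serpina3m they were Mical2 (0.961), Eya4 (0.944) and Kdm4c (0.934), with 23 genes past 0.9, and for Serpina3n Farp1 (0.981), Irf2bpl (0.977) and Ndrg1 (0.975), with 113. By deviations from the group means, the nearest were Plpbp (0.988), Impact (0.986) and Rasl12 (0.977) for Serpina3i. They were Gemin4 (0.946), Ccnj (0.924) and Stx18 (0.915) for Serpina3m, and Mospd1 (0.975), Farp1 (0.951) and Pde4b (0.945) for Serpina3n. DKO values of Serpina3m rest on 0 to 2 counts per library, and each r was picked as among the highest of many over 8 libraries. The top genes differed between the 2 measures except for Farp1, and the first measure includes the difference between groups.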

How the data were processed

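Per the file headers, the count tables deposited by the authors, 1 for each library, hold unnormalised read counts from featureCounts (Subread 1.5.2) on the RefSeq annotation of GRCm38.p5, with reads on exons summed by gene ID for reverse-stranded libraries and no option set for reads that match several places. The libraries came from a stranded messenger RNA kit, per the labels' protocols. Trimmomatic 0.36 and 0.33, STAR 2.4.2a and edgeR 3.12.0 are named in the submitters' processing notes, with no role. Of the rows, 1646 have exons on more than 1 sequence of the assembly, and 52.9% of these are listed at 0 in every library, against 27.0% of the others. Igtp, Psmb8, Tap1, Angptl4, Trac and Cldn5, which stand in the lists used, are listed at 0. Groups and replicate numbers came from the sample descriptions. No 2 libraries of a group agreed within sampling noise (reduced chi-square 25.05 to 143).

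Symbols from RefSeq matched 96.9% of IDs. Genes were kept with filterByExpr, which left 16870, scaled with TMM and tested with edgeR 4.0.16 (quasi-likelihood F-test, robust, no covariate, two-sided, Benjamini-Hochberg over all genes, R 4.3.3). The biological coefficient of variation was 0.281. CPM carry the TMM factors, and CPM for correlations had a prior count of 2. Alternatives were run with limma 3.58.1 and DESeq2 1.42.0. Loop and window comparisons used GENCODE transcripts of GRCm38 and Biopython 1.88. The genes followed and all lists were chosen with earlier results of these data known. Named genes were the 6 copies, all other Serpina3 rows, up to 3 called members of each list or else the one with the smallest adjusted p, the nearest tested neighbours, and the 3 genes most alike by each measure. Tsc22d3, Nr3c1, Saa2, Saa3, Apoa1, Alb, Ttr, Trf, Cpa3, Plin1 and the genes named for 1 library standing apart fall in part outside that rule and were named after their values were seen.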

Additional observations from a re-analysis of the deposited data

Results flagged for a closer look

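The 50 genes of the Serpina3 cluster, its neighbourhood and the lists that are named with values were searched for a library far from the other 3 of its group by Dixon's criterion, which chance meets in about 1 of 20 groups. Of the 6 copies, Serpina3m in DKO 2 met it, at 0 CPM (0 counts) against 0.0508 to 0.0574 CPM from 2 counts each in the other DKO ovaries. Serpina1e was at 64.2 CPM in Control 1 against 0.0275 to 0.198 in the other Controls, and at 1.91 CPM in DKO 2 against 0.0527 to 0.115 in the other DKO ovaries. Serpina9 was at 2.10 CPM in Control 1 and 1.88 CPM in DKO 2, against at most 0.214 and 0.0264 CPM in the rest of each group. Clmn was at 20.0 CPM in Control 1 and 11.5 CPM in DKO 2, against 1.48 to 4.33 and 2.94 to 3.36 CPM. Control 1 and DKO 2 are also the libraries with the most epithelial marker RNA. Serpina3k was at 0.275 CPM in Control 3, from 10 counts, against 0.0269 to 0.061 CPM in the other Controls. Saa2 was at 1.35 CPM in Control 3 against 0 to 0.183 CPM, and at 6.45 CPM in DKO 2 against 1.09 to 1.18 CPM. Igf1r, the receptor gene targeted in DKO, was at 247 CPM in DKO 4 against 200 to 205 CPM in the other DKO ovaries.

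The other cases rested on 0 to 3 counts in the library concerned. They were Serpina3e-ps in DKO 4 (0.0287 CPM), Serpina11 in Control 1 (0.0537), Serpina12 in DKO 1 (0.0254), Gm31271 in Control 1 (0.0537) and Gm10000 in Control 2 (0.0848). Ttr met it in Control 1 (0.0537 CPM) and DKO 2 (0.0294), and Gm40562 in DKO 2 and Gm31573 in Control 3 met it with 0 counts beside single counts in the rest.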

How the results depend on the processing

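All 6 copies kept a log2 fold change below 0 in every alternative that gave one, and the summed counts kept theirs, from -1.32 to -0.96 when 1 library was left out. The number of the 6 called lower, 2 with all libraries, was less stable. It was 1 with at least 1 CPM required in at least 4 libraries (where Serpina3h and Serpina3m were no longer tested), 4 with DESeq2 (adjusted p of Serpina3m not given), 5 with limma-voom and quality weights, 1 among the 5 libraries of the later run of title numbers alone, and 0 to 3 with 1 library left out. Without DKO 1 and DKO 2 it was 0, and without Control 1 and DKO 2 it was 1. These last 2 fits, and the scaling of lengths by 50-base windows, were chosen after seeing the data. Over the alternatives giving an adjusted p, Serpina3i was called in 14 of 22, and Serpina3f in 0.

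Over all genes, 212 were called, 128 higher and 84 lower. The count was 1118 with DESeq2, 1651 with quality weights, 526 with a block for the run of title numbers, 64 without DKO 1 and DKO 2, and 97 without Control 1 and DKO 2. With 1 library left out it was 2 (without Control 2) to 506 (without Control 3). The replicate numbers share no stated origin, and their correlations (0.156, -0.359, 0.312 and 0.468) did not pair the samples, with 2 of 4 nearest to their own number. With the replicate number as a block, 743 genes were called, 4 of the 6 copies, 9 acute phase and STAT3 genes and 8 glucocorticoid response genes. Depth limits Serpina3m, Serpina3h and Serpina3i most.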
